A study of Homo sapiens with 6 samples.

Results

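Antisense long non-coding RNAs (lncRNAs) are transcribed from the strand opposite a named gene, and the gene nomenclature marks them with the symbol of that sense gene followed by -AS and a number. The genes described here are the lncRNA genes of the K562 count table with such a symbol and at least 30 reads summed over all 6 libraries, apart from OIP5-AS1 and EPB41L4A-AS1. Of 1875 lncRNA genes with an -AS symbol, 833 had a read and 168 met this minimum, and these 168 held 78.5% of the reads of all -AS genes. The whole table has 68201 genes, of which 11347 reached 30 reads. The K562 line was derived from a human chronic myelogenous leukaemia and carries no engineered change here, since all samples are labelled wild type (WT) and untreated. RNA of whole cells (WC, 3 replicates) was compared with RNA of the extracellular vesicles (EV, 3 replicates) that such cells released into their medium, and both were copied into cDNA from poly(A) tails and read on nanopore flow cells. EVs are small membrane-bound particles, collected here by filtration and size exclusion, so an RNA counted in the EV libraries is one that co-purified with particles of that size. In such bulk preparations fewer vesicles with an RNA and fewer molecules per vesicle cannot be told apart.

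Many antisense lncRNAs start near the promoter of their sense gene and run away from it, others start beyond its end and run back through it, and others lie wholly inside one of its introns. Some are known to act on the locus they come from, either through the act of transcription or by binding the sense RNA, while others act elsewhere in the cell or have no known role. Because they share bases with the sense gene, they can be counted cleanly only where a read is assigned to a strand or lies outside the shared part.

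The WC libraries held 2480560, 3178211 and 2694992 gene counts and the EV libraries 881338, 560157 and 580852, so that 20364 of the 23155 reads of the antisense lncRNAs came from WC and the minimum of 30 reads acted mainly through WC. All 168 had a read in each WC library, while 128, 122 and 121 had one in EV replicates 1, 2 and 3. The 12 erythroid markers that check the K562 label (globins, GATA1 and others) all had reads in WC and summed to 419 to 465 CPM in WC and 655 to 810 CPM in EV libraries, whereas 6 markers of other blood cells summed to 4.26 to 8.08 CPM in WC and 2.27 to 6.71 CPM in EV libraries. CPM, the level used throughout, is a read count divided by the size of its library after TMM scaling, which sets the bulk of the genes equal between libraries.

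All but 1 of the 167 antisense lncRNAs with a sense gene in the table lay on the strand opposite to it. In the GENCODE v44 annotation of hg38, 113 overlapped the sense gene in part, 37 lay wholly inside it, 15 pointed away from it without overlap (divergent), and IGFL2-AS1 was convergent with its sense gene. PYDC2-AS1 lay on the same strand as PYDC2, and TRG-AS1 had no sense gene in the table. Exon bases were shared with the sense gene by 98, with a median of 5.53% of the antisense exon length.

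The isoform models that the authors assembled from their reads with the help of the annotation give a strand for the spliced antisense RNAs. There were 442 models for 134 of the antisense lncRNAs, 428 of them spliced, in 128 genes, and every spliced model was on the annotated strand, while 8 of the 14 unspliced models were on the other strand. Of 662 distinct introns in these models, 652 began with GT and ended with AG when read from hg38 on the antisense strand, 9 had GC and AG, and 1 intron, of GABPB1-AS1, had AT and AG. On the sense strand the same introns would begin with CT and end with AC, so the letters do not depend on how reads were counted. The models were pooled over the libraries and assigned to genes with the help of the annotation, and they carry no value per library. Of the 442, 232 carry the identifier of an annotated transcript. Their strand and splice letters are thus in part those of the annotation and not independent evidence from the reads. The splice sites of 6 antisense lncRNAs on which the results turn are shown as 10 exon bases next to 10 intron bases, 5′ to 3′ on the antisense strand, with the first and last bases of the intron in capitals. For each the intron that occurs in the most models was taken, and the one with the lowest start coordinate where several tied. The introns shown for FOXP4-AS1 and VIM-AS1 occur in 1 model each.

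IGFL2-AS1, 5′ splice site: tttaaatcggGTaagtagcc
IGFL2-AS1, 3′ splice site: ttttttccAGggacgcaaag
TMEM132D-AS1, 5′ splice site: atggggacctGTaagtccaa
TMEM132D-AS1, 3′ splice site: tgctttgtAGgtcgtcgctg
FOXP4-AS1, 5′ splice site: cagtcccgcgGTgagacgtg
FOXP4-AS1, 3′ splice site: tcaattaaAGgagacaaaaa
CCDC18-AS1, 5′ splice site: tgatcctcagGTaaaatcta
CCDC18-AS1, 3′ splice site: tttttcttAGgagtctctgc
PSMA3-AS1, 5′ splice site: tggtaataagGTactcagtc
PSMA3-AS1, 3′ splice site: ttatactcAGatataaaacc
VIM-AS1, 5′ splice site: agaataaaagGTcagtattt
VIM-AS1, 3′ splice site: ctcaatatAGaagccttcga

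These introns are chr19:46198443-46202839 (minus strand, in 4 of 4 IGFL2-AS1 models), chr12:129109758-129110992 (plus strand, in 9 of 10 TMEM132D-AS1 models), chr6:41524116-41524191 (minus strand, FOXP4-AS1), chr1:93339537-93339648 (minus strand, in 8 of 11 CCDC18-AS1 models), chr14:58267394-58273978 (minus strand, in 6 of 11 PSMA3-AS1 models) and chr10:17215365-17216166 (minus strand, VIM-AS1). Spliced and unspliced models together had a median of 3 exons, and CCDC18-AS1 had the model with the most, 12. All models together had a median length of 966.5 nt. The authors' productivity step classed 440 of the 442 as without a start codon, and the 2 it called productive were single-exon models of ALOX12-AS1 and FBXL19-AS1.

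As a group the antisense lncRNAs took a smaller share of the EV counts than of the WC counts. Their share of all gene counts was 0.221%, 0.243% and 0.265% in the WC libraries (0.243% ± 0.022, SD, n = 3) and 0.130%, 0.140% and 0.147% in the EV libraries (0.139% ± 0.0084, SD, n = 3). The lowest WC share was above the highest EV share, and the EV mean was 0.573 of the WC mean. The size of this difference depends on the scale, since the summed level with TMM scaling was 1940 ± 95 CPM in WC and 1748 ± 186 CPM in EV (SD, n = 3), a ratio of 0.90. On that scale the ranges overlapped, with 1914 CPM in EV replicate 3 and 1849 CPM in WC replicate 1. For all lncRNA genes together the share was 2.54% ± 0.19 in WC and 2.86% ± 0.60 in EV (SD, n = 3), and the ranges overlapped, while their summed level was 20312 ± 709 CPM in WC and 36095 ± 9053 CPM in EV (SD, n = 3) without overlap, a ratio of 1.78. No test was made of these sums, because the antisense genes were chosen on these reads.

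Gene by gene, 123 of the 168 (73.2%) had a lower mean CPM in EV than in WC, against 57.8% of the 11347 genes with the same minimum of reads. All 3 EV levels lay below all 3 WC levels for 64 (38.1%, against 30.3% of genes) and above them for 15 (8.93%, against 21.2% of genes). No EV read was seen for 12 (7.14%, against 2.69% of genes). Of these 12, 8 lay wholly inside their sense gene, and ZMYM4-AS1 with 75 WC reads, KLC1-AS1 with 73 and TAT-AS1 with 65 had the most reads among them. The antisense lncRNAs had a median of 71 reads in all and the 11347 genes a median of 142. Genes with fewer reads are more often without an EV read, and the part of read number in these differences was not tested.

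The edgeR quasi-likelihood test, fitted over 8716 genes with adjusted p-values over all of them, kept 95 of the 168. Of these, 13 rose in EV (13.7%, against 22.8% of the tested genes) and 31 fell (32.6%, against 21.4%) at an adjusted p under 0.05, and 51 were not called. Under total-count scaling, which moved the median of all tested genes from -0.13 to -0.77, 4 rose and 58 fell. With the study's stricter limits (a log2 fold change of at least 2 in size and an adjusted p of at most 0.01), 1 was enriched in EV (1.05%, against 4.53%) and 16 in WC (16.8%, against 5.93%). Without EV replicate 1, 8 were enriched in WC and 3 in EV, without EV replicate 3, 10 were enriched in WC, without WC replicate 1, 2 were enriched in EV, and DESeq2 gave 9 in WC. Among all 475 tested lncRNA genes, 63 rose (13.3%) and 187 fell (39.4%), and 12 were enriched in EV and 98 in WC. The fall was thus not particular to the antisense lncRNAs. The median log2 fold change was -0.53 over the 95, -0.13 over all tested genes and -0.67 over the 475 tested lncRNA genes. The filter bears on these counts. It kept 31 of the 95 with no EV library over its limit of 5.95 CPM (before TMM scaling), and 23 of the 31 that fell and 13 of the 16 enriched in WC are among them, whereas of the 64 with an EV library over the limit 13 rose, 8 fell and the median was -0.11. RAB11B-AS1, which rose, was kept with no WC library over the limit. The other 73 of the 168 were too low to test, and 55 of them had a lower mean CPM in EV. Longer genes had lower fold changes both among the antisense lncRNAs (Spearman's rho of exonic length and log2 fold change -0.29 across 95 genes) and among all tested genes (-0.38 across 8701), as a description across genes that share the same libraries, and the part of length in the result was not tested.

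**Figure D1:**
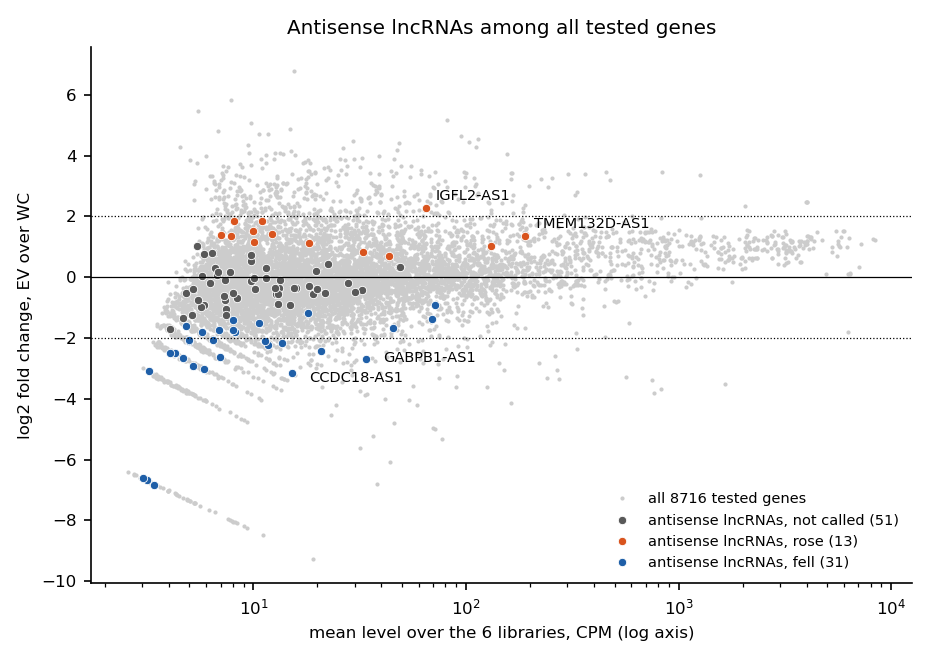
Log2 fold change of EV over WC (vertical axis) against the mean level over 6 libraries in CPM (horizontal log axis), for all 8716 tested genes in grey and the 95 tested antisense lncRNAs in colour by call. Dotted lines mark log2 changes of 2 and -2. The 31 that fell reach lower than the 13 that rose reach higher, and the 3 points below -6 had no EV read, so their fitted change is not a measured size.

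IGFL2-AS1 was the only antisense lncRNA enriched in EV, at chr19:46189029-46203160 on the minus strand. Its level was 22.6, 25.8 and 17.7 CPM in the WC libraries and 104, 104 and 116 CPM in the EV libraries. Every EV library was far above every WC library, and the log2 fold change was 2.28 ± 0.21 (SE, edgeR adjusted p = 2.08e-09). IGFL2, which encodes a member of the insulin growth factor-like family, ends 27731 bases away and had 17 reads in all against 407 of the antisense gene.

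TMEM132D-AS1 had the most reads of all, 1535, and lies at chr12:129109629-129113294 inside TMEM132D, a transmembrane protein gene without a read in any library. Its level was 115, 100 and 103 CPM in WC and 234, 277 and 307 CPM in EV libraries. The groups did not overlap, and the log2 fold change was 1.35 ± 0.17 (SE, edgeR adjusted p = 3.58e-07). B3GALT1-AS1, at chr2:167814757-167941180 and partly over the galactosyltransferase gene B3GALT1, ranked next with 87.6, 88.9 and 82.1 CPM in WC and 145, 209 and 175 CPM in EV libraries. It rose by 1.02 ± 0.18 on the log2 scale (SE, edgeR adjusted p = 4.87e-05), again without overlap, and B3GALT1 had 36 reads against 1181 of its antisense gene. IGFL2-AS1 and TMEM132D-AS1 rose under total-count scaling as well, by 1.65 and 0.71 on the log2 scale, so that IGFL2-AS1 was then below the limit for enrichment, and B3GALT1-AS1 then had 0.37 with an adjusted p of 0.063. These 3 kept their call without any 1 of the 6 libraries.

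For 7 of the other 10 that rose the EV levels all lay above the WC levels. RAB11B-AS1 starts 704 bases from the start of RAB11B, a GTPase gene of recycling endosomes, and had 4.38, 3.25 and 2.57 CPM in WC and 9.41, 9.07 and 20.1 CPM in EV libraries. It passed the expression filter through EV alone, so its test was not independent of its high EV level. FOXP4-AS1, antisense to the forkhead factor gene FOXP4, had 5.39, 4.76 and 3.71 CPM in WC and 13.4, 18.1 and 20.1 CPM in EV libraries. Their log2 fold changes were 1.86 ± 0.46 and 1.84 ± 0.38 (SE, edgeR adjusted p = 0.00175 and 0.000351). KCNMB2-AS1, named after a potassium channel subunit, rose by 1.504 ± 0.401 and HEY2-AS1, named after a Notch target gene, by 1.38 ± 0.46 on the log2 scale (SE), the first sharing over 400 bases with copies elsewhere in the genome, so that its reads are uncertain. TRIM52-AS1 rose by 1.42 ± 0.40 (SE) with an overlap, since EV replicate 3 at 6.71 CPM was within the WC range of 5.51 to 7.70 CPM and the others were at 17.5 and 29.5 CPM. EPS15-AS1, opposite an endocytic adaptor gene, likewise overlapped, with 4.54 CPM in EV replicate 2 inside the WC range of 3.504 to 5.389 CPM. Without EV replicate 3 its adjusted p was 0.28, and TRIM52-AS1 had 0.0896 without EV replicate 2. ENTPD3-AS1 (1.13), ZBTB11-AS1 (1.15), PYDC2-AS1 (0.82) and ZSCAN16-AS1 (0.71) complete the log2 fold changes of those that rose, and ZBTB11-AS1, ZSCAN16-AS1, PYDC2-AS1 and HEY2-AS1 each lost the call without at least 1 library. With the replicate number as a block ZBTB11-AS1 had an adjusted p of 0.0623 (edgeR).

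GABPB1-AS1 had the most reads of the 16 enriched in WC. It lies at chr15:50354944-50372202 and starts 464 bases from the start of GABPB1, which encodes a subunit of the GA-binding protein transcription factor. Its level was 55.9, 52.6 and 69.6 CPM in WC and 12.1, 11.3 and 2.24 CPM in EV libraries, and no EV library came near the WC range. The log2 fold change was -2.69 ± 0.34 (SE, edgeR adjusted p = 4.46e-07). CCDC18-AS1, at chr1:93262186-93346025, fell further, by 3.14 ± 0.47 on the log2 scale (SE, edgeR adjusted p = 4.6e-06), from 23.6, 25.8 and 33.1 CPM in WC to 4.03, 2.27 and 2.24 CPM in EV, where it had 5 reads in all. PSMA3-AS1, at chr14:58265365-58298134 and named after a proteasome subunit gene, fell by 2.42 ± 0.44 on the log2 scale (SE, edgeR adjusted p = 8.5e-05), with 25.9, 39.8 and 41.6 CPM in WC and 10.8, 0 and 6.71 CPM in EV libraries.

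PCBP1-AS1 fell from 20.2, 21.8 and 24.5 CPM to 4.03, 6.80 and 4.48 CPM, VIM-AS1 from 16.8, 17.0 and 22.0 CPM to 5.38, 4.54 and 2.24 CPM, and ALOX12-AS1 from 14.1, 21.5 and 24.2 CPM to 8.07, 2.27 and 0 CPM (WC and EV replicates 1 to 3). Their log2 fold changes were -2.16 ± 0.42, -2.10 ± 0.45 and -2.23 ± 0.52 (SE, edgeR adjusted p = 0.000137, 0.000509 and 0.00121), and no EV library reached the WC range in any of them. NRSN2-AS1 fell by 2.05 ± 0.62 (SE) and had 4 EV reads. PCBP1-AS1 is of interest for counting, since its exons cover 73.2% of those of PCBP1, an intronless gene of a poly(C)-binding protein, and PCBP1 was given 2 reads in all against 241 of PCBP1-AS1. The authors left reads from regions with several annotated genes unassigned. The exons of C10orf95 and CBR3 were covered to 86.9% and 71.1% by their antisense genes and these sense genes had 0 and 1 reads. FGD5, covered to 2.17%, and TMEM132D, without shared exon bases, also had 0 reads, while UXT, covered to 27.5%, had 197. The part of shared exon bases in these counts was not tested.

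For the other enriched in WC only a few EV reads, or none, carry the result. KLC1-AS1 (inside the kinesin light chain gene KLC1), TAT-AS1 (antisense to the tyrosine aminotransferase gene) and FOXD2-AS1 had no EV read, and set against a floor of 3 reads over the EV group they were at least 3.79-fold, 3.38-fold and 3.27-fold lower in EV. With 1 to 3 EV reads the ratio of WC to EV levels has a wide counting interval, given here as the exact Clopper-Pearson 95% interval, which covers counting error alone. It was 8.41 (2.27 to 70.4) for ANXA2R-AS1, 7.87 (2.12 to 65.8) for SLC16A4-AS1, 9.35 (1.61 to 375) for GRM7-AS3, 6.62 (1.78 to 55.6) for MSRB3-AS1, 6.39 (2.13 to 31.4) for PPP1R26-AS1 and 5.92 (1.58 to 49.8) for ELOA-AS1. All 3 EV levels were below all 3 WC levels in each of these 9. PPP1R26-AS1 and GRM7-AS3 were no longer called without EV replicate 1 (edgeR adjusted p = 0.053 and 0.0899). With the replicate number as a block, PPP1R26-AS1, NRSN2-AS1, MSRB3-AS1, ELOA-AS1 and GRM7-AS3 still fell but missed the adjusted p of 0.01 for enrichment (edgeR adjusted p = 0.01001, 0.0137, 0.0105, 0.0182 and 0.0215).

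**Figure D2:**
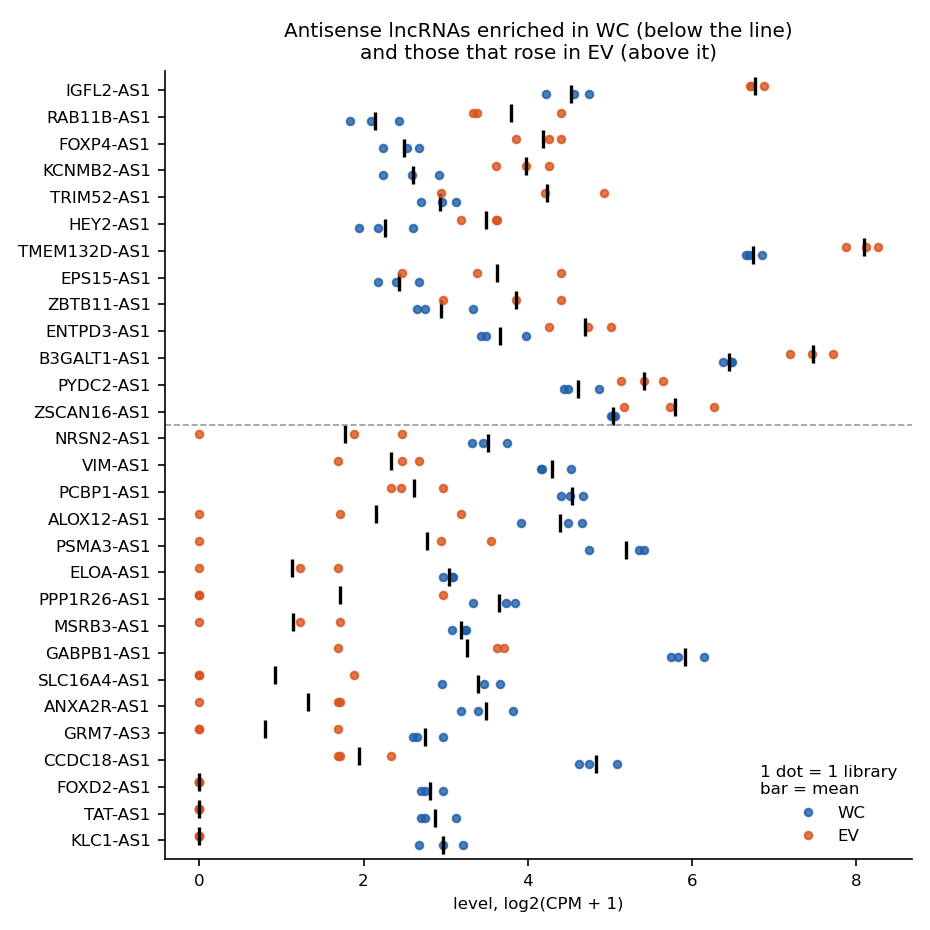
Level of 29 antisense lncRNAs in each library as log2(CPM + 1), WC in blue and EV in orange, 1 dot per library and a bar at the log2 of the group mean plus 1. The 16 enriched in WC are below the dashed line and the 13 that rose in EV above it. Below the line every EV dot is left of every WC dot of the same gene, and 3 genes have all EV dots at 0. Above it only TRIM52-AS1, EPS15-AS1 and ZBTB11-AS1 overlap.

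Of the remaining abundant antisense lncRNAs, 3 fell and 2 were not called. NUTM2A-AS1 fell from 73.1, 113 and 109 CPM to 21.5, 54.4 and 44.8 CPM and NUTM2B-AS1 from 47.2, 78.3 and 78.4 CPM to 12.1, 31.7 and 24.6 CPM, by 1.38 ± 0.27 and 1.68 ± 0.31 on the log2 scale (SE, edgeR adjusted p = 0.000212 and 0.000106). Both lie on chromosome 10, and their transcripts share 6082 nt at 99.1% identity, of exonic lengths of 24071 and 22490 nt, so reads from the shared stretch cannot be told apart and both values are uncertain. DLGAP1-AS2, inside the synaptic scaffold gene DLGAP1, fell by 0.90 ± 0.21 (SE) from 102, 90.1 and 85.8 CPM to 43.0, 47.6 and 60.4 CPM. OTUD6B-AS1 and KRT10-AS1 had log2 fold changes of 0.34 ± 0.21 and 0.35 ± 0.22 (SE, edgeR adjusted p = 0.188 and 0.197) and did not pass the test, although the 3 EV levels were above the 3 WC levels in both. Under total-count scaling both had a negative value, -0.29 for each.

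Of the 10 members on a list of antisense lncRNAs with a described role or disease link, GABPB1-AS1 and PCBP1-AS1 fell, FOXP4-AS1 rose, 5 were not called and THAP9-AS1 and GATA2-AS1 were too low to test. FGD5-AS1, at 29, 29.5 and 31.4 CPM in WC and 28.2, 24.9 and 24.6 CPM in EV, had a log2 fold change of -0.19 ± 0.25 (SE, edgeR adjusted p = 0.569), while FGD5 had no read in any library. MAPKAPK5-AS1 (0.19 ± 0.29), NNT-AS1 (-0.35 ± 0.50), WAC-AS1 (-0.03 ± 0.41) and PRKCQ-AS1 (-0.70 ± 0.49) had log2 fold changes within 2 SE of 0. NNT-AS1 and WAC-AS1 share stretches with other loci at 95.5% and 95.6% identity, and their reads are uncertain. GATA2-AS1, opposite the haematopoietic factor gene GATA2, had 13, 19 and 13 reads in WC and 2, 0 and 1 reads in EV libraries, and the ratio of 2.34 had a Clopper-Pearson interval of 0.75 to 11.8.

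Position relative to the sense gene did not sort the changes into one direction. Of 66 tested that overlapped the sense gene in part, 9 rose and 26 fell, and the median was -0.58 on the log2 scale. Of 18 tested inside the sense gene, 1 rose and 4 fell, with a median of -0.28. Of 8 tested that were divergent, TRIM52-AS1 rose and FOXD2-AS1 fell, with a median of -0.74. Of the 3 tested outside these classes, IGFL2-AS1 (convergent) and PYDC2-AS1 (same strand) rose, and TRG-AS1, without a sense gene in the table, had -0.38 and was not called. The 40 antisense lncRNAs without a spliced model held 8 of the 12 without an EV read, and 4 of the 16 enriched in WC.

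**Figure D3:**
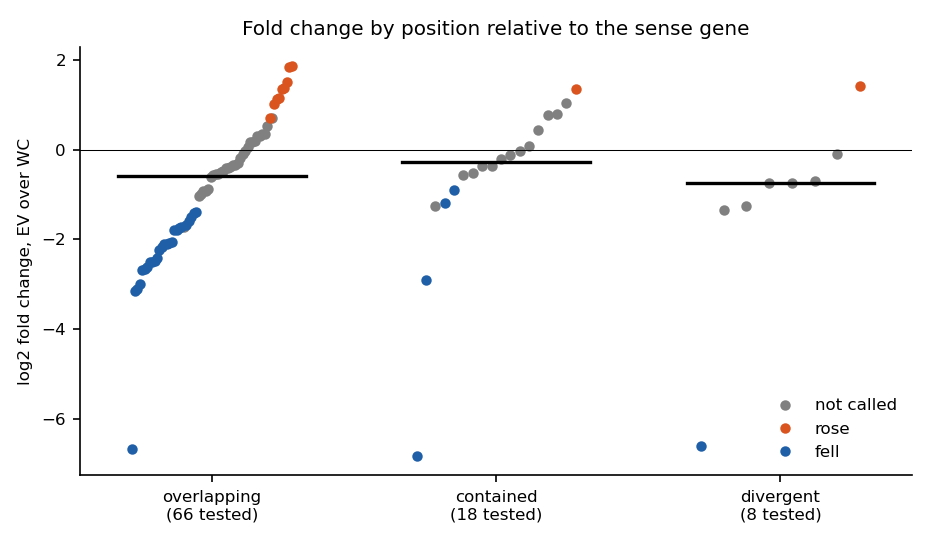
Log2 fold change of EV over WC for the tested antisense lncRNAs by position relative to the sense gene (66 overlapping in part, 18 contained, 8 divergent), 1 point per gene in rank order, coloured by call, with a line at the median of each class. The medians of -0.58, -0.28 and -0.74 lie below 0 in all 3 classes, and points that rose occur in each.

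Grouped by the kind of sense gene, counts were too small for more than a listing. Among 12 opposite zinc finger genes 4 were tested, and ZBTB11-AS1 and ZSCAN16-AS1 rose. Among 8 opposite genes of transcription and chromatin 5 were tested, and GABPB1-AS1, MEF2C-AS1 and FOXD2-AS1 fell while FOXP4-AS1 rose. Among 11 opposite traffic and membrane genes 9 were tested, RAB11B-AS1 and TMEM132D-AS1 rose, SLC16A1-AS1, SLC16A4-AS1 and SLC18A2-AS1 fell, and 4 were not called, SLC38A4-AS1 with -0.10 among them. Among 4 opposite genes of RNA processing or translation 3 were tested, and PCBP1-AS1 was the one called, having fallen. Among 3 opposite genes of the cell cycle group KIF9-AS1 was the one tested, and it fell.

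Of 167 antisense lncRNAs with a sense gene in the table, 85 had more reads than it, and 101 had a higher level per kb of exon in WC and 87 in EV. The antisense genes were chosen for at least 30 reads and the sense genes were not, so these counts follow in part from the choice. Reads from regions of several genes were left unassigned, which can lower the counts of either gene in the 98 pairs that share exon bases. The level per kb also depends on exon length, with a median of 3426 nt for the antisense and 5791.5 nt for the sense genes. The part of either was not tested. The sense gene had no read in 7 cases and 1 to 29 reads in 49. Of the 86 sense genes tested, 11 rose (12.8%) and 21 fell (24.4%), against the 22.8% and 21.4% of all tested genes, with a median log2 fold change of -0.32.

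In the 42 pairs with both genes tested the fold changes of antisense and sense gene were not related in rank (Spearman's rho -0.07, as a description across pairs that share the same libraries). NRSN2-AS1, SLC16A1-AS1 and SLC16A4-AS1 fell together with their sense genes. VIM-AS1, NR2F2-AS1 and MEF2C-AS1 fell while their sense genes rose, 5 fell with a sense gene that was not called, and 3 rose with a sense gene that was not called. Only these 3 of the 13 that rose had a tested sense gene. Whether sense genes change where the antisense gene rose can thus not be judged. SLC16A4-AS1 and SLC16A4, a gene of the monocarboxylate transporter family, fell by 2.91 ± 0.77 and 2.80 ± 0.39 on the log2 scale (SE), and the antisense gene lies inside the sense gene and has no isoform model.

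**Figure D4:**
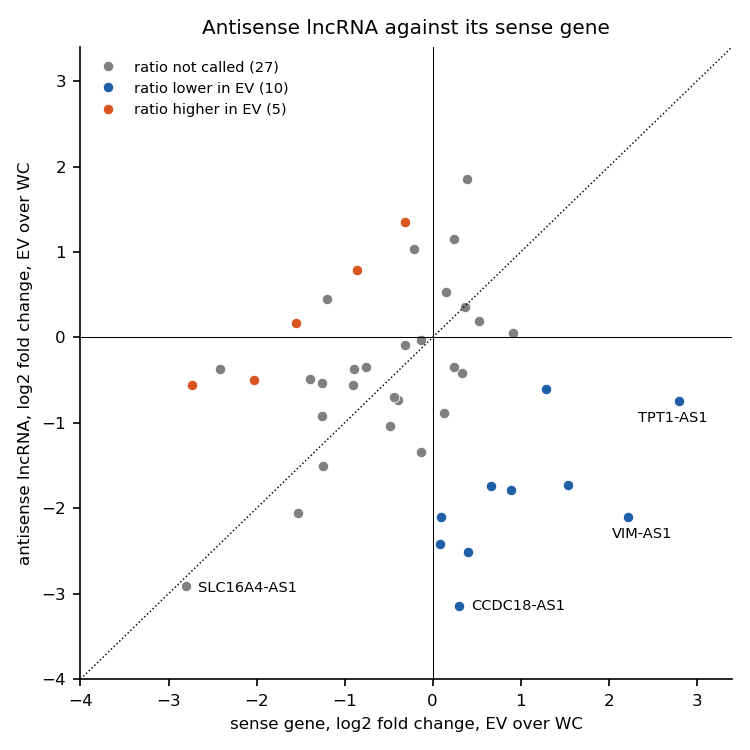
Log2 fold change of EV over WC of the antisense lncRNA (vertical) against that of its sense gene (horizontal) for the 42 pairs with both genes tested, coloured by the call of their ratio. The dotted diagonal is equal change. The 10 pairs with a lower ratio lie right of 0 on the horizontal axis and below the diagonal, the 5 with a higher ratio left of 0 and above it.

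The ratio of antisense to sense reads within a library does not depend on how libraries are scaled. The strand setting of the counting is not given in the sources used here. Reads of the sense gene from its introns could thus be among the antisense counts. Reads from shared exon bases, left unassigned in regions of several genes, could be missing from either gene. The part of both in the ratios was not tested. The ratio was tested in 111 pairs with at least 30 reads for each gene, in a fit over 8300 pairs of neighbouring genes on opposite strands with adjusted p-values over all of them. The ratio was lower in EV for 22 pairs (19.8%, against 19.9% of all pairs) and higher for 9 (8.11%, against 15.3%), and 80 were not called. Without EV replicate 1, 14 were lower and 5 higher, without WC replicate 2, 5 were higher, and with the replicate number as a block in limma 17 were lower and 6 higher. In the pairs other than these 111, the gene with fewer reads took the place of the antisense gene. In the 111 the antisense gene kept that place whatever its reads. The shares of lower and higher ratios, and the medians, are therefore not a like-for-like comparison with all pairs. The median log2 change of the ratio was -0.36, or -0.26 with the 10 pairs without an EV antisense read set to their bounds, and -0.21 over the 8300 pairs.

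The VIM pair had the lowest p of the 111. VIM encodes vimentin, an intermediate filament protein, and VIM-AS1 starts 1777 bases from the VIM start, at chr10:17214239-17230018, with 30.9% of its exon length shared with VIM exons. The antisense RNA made up 28.2%, 25.2% and 32.6% of the reads of the pair in WC and 2.16%, 2.41% and 1.02% in EV libraries. Every WC share was far above every EV share, and the log2 ratio changed by -4.35 ± 0.48 (SE, edgeR adjusted p = 2.08e-17). Both sides contributed, since VIM rose by 2.22 ± 0.18 (SE) while VIM-AS1 fell by 2.10 ± 0.45 on the log2 scale.

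TPT1, which encodes the translationally controlled tumour protein, and TPT1-AS1 start 61 bases apart and run in opposite directions. The stretch between the 2 starts, chr13:45341284-45341345 in hg38, is shown on the antisense strand from the TPT1 start to the TPT1-AS1 start, both in capitals, beside the shorter one of the TRIM52 pair at chr5:181261150-181261169, the divergent pair whose antisense RNA rose.

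TPT1 to TPT1-AS1: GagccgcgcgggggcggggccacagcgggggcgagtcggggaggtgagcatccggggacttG
TRIM52 to TRIM52-AS1: TgacgtctcgctcctgcacA

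TPT1-AS1 made up 7.66%, 11.1% and 10.3% of the reads of the pair in WC and 0.879%, 0.80% and 1.15% in EV libraries, and the log2 ratio changed by -3.53 ± 0.47 (SE, edgeR adjusted p = 4.38e-12). With TMM scaling only the sense gene was called here, with a log2 fold change of 2.80 ± 0.16 (SE) for TPT1 and of -0.74 ± 0.50 (SE, edgeR adjusted p = 0.239) for TPT1-AS1. Unlike the ratio, this split between the sides of a pair depends on the scaling. TPT1-AS1 shares 1617 nt at 98.5% identity with RCN1, and its reads are uncertain. Copies of TPT1 and of the other sense genes were not sought, so their reads may be uncertain as well. Of the 13 divergent pairs with starts under 1000 bases apart, 7 had a tested antisense RNA, and TRIM52-AS1 was the only one called.

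In the PRKAR2B pair, named after a regulatory subunit of protein kinase A, the antisense RNA had 12, 14 and 18 reads in WC and none in EV, beside 20, 21 and 18 reads of PRKAR2B in WC and 32, 17 and 15 in EV. It thus made up 37.5%, 40% and 50% of the pair in WC and 0 of 64 reads in EV, which allows a share of up to 4.69%, and the ratio was at least 15.9-fold lower (edgeR adjusted p = 1.11e-08). PRKAR2B rose by 2.77 ± 0.29 on the log2 scale (SE). Of the 22 pairs with a lower ratio, 5 had no antisense read in EV.

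In the CCDC18 and PSMA3 pairs only the antisense side was called with TMM scaling. CCDC18-AS1 went from 54.7%, 55.7% and 61.4% of the pair in WC to 21.4%, 5.26% and 8.33% in EV, a log2 change of -3.40 ± 0.64 (SE, edgeR adjusted p = 1.68e-06), with CCDC18 at 0.30 ± 0.30 (SE, edgeR adjusted p = 0.45). PSMA3-AS1 went from 16.3%, 22.4% and 25.2% to 6.90%, 0% and 4.62%, a log2 change of -2.51 ± 0.46 (SE, edgeR adjusted p = 6.43e-07), with PSMA3 at 0.08 ± 0.17 (SE, edgeR adjusted p = 0.731). GABPB1-AS1 made up 94.9%, 93.3% and 95.7% of its pair in WC, where GABPB1 itself had only 35 reads, and 64.3%, 62.5% and 20% in EV.

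Transcription factor genes gave the next 2. NR2F2 encodes an orphan nuclear receptor and MEF2C a MADS-box factor. NR2F2-AS1 fell from 61.5%, 63.5% and 64.0% of the pair to 18.8%, 0% and 23.1%, and MEF2C-AS1 from 33.9%, 31.2% and 28.3% to 6.98%, 0% and 10.3%. The log2 changes of the ratio were -3.25 ± 0.65 and -2.69 ± 0.60 (SE, edgeR adjusted p = 7.35e-06 and 6.43e-05), and NR2F2 and MEF2C rose by 1.53 ± 0.35 and 0.89 ± 0.23 on the log2 scale (SE). EV replicate 2 had no read of either antisense RNA, and without it NR2F2-AS1 as a single gene had an adjusted p of 0.0683.

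Among the 9 pairs with a higher ratio in EV, the side that was called differed from pair to pair, as far as the single genes were tested. SPEN-AS1, CAPN1-AS1, KANSL1-AS1 and ZNF529-AS1 had sense genes that fell, by 2.03, 1.55, 1.39 and 2.37 on the log2 scale, while SPEN-AS1 and CAPN1-AS1 were not called and the other two antisense RNAs were too low to test. SPEN-AS1 went from 30.3%, 30.3% and 28.6% of its pair to 58.3%, 42.9% and 66.7%, without overlap, a log2 change of 1.53 ± 0.50 (SE, edgeR adjusted p = 0.00945). FOXP4-AS1, EPS15-AS1 and B3GALT1-AS1 rose themselves. FOXP4-AS1 went from 59.3%, 63.3% and 48.1% of its pair to 90.9%, 100% and 81.8%, where FOXP4 had 3 EV reads. KMT2E-AS1, opposite a gene of the KMT2 family, went from 15.3%, 13.9% and 13.1% to 50%, 28.6% and 28.6% (edgeR adjusted p = 0.0279) without a call for either gene alone. With the replicate block in limma the ratios of SPEN-AS1, ZNF529-AS1, EPS15-AS1 and B3GALT1-AS1 were no longer called (adjusted p = 0.0719, 0.0535, 0.0756 and 0.107), and those of EPS15-AS1 and B3GALT1-AS1 were not called in limma without the block either.

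**Figure D5:**
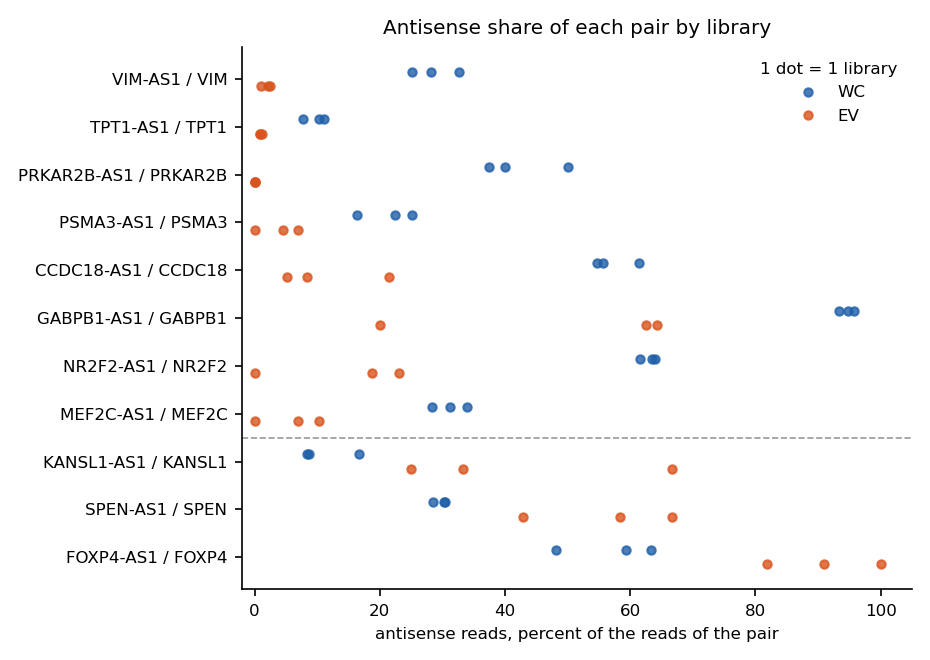
Antisense reads as a percent of the reads of the pair in each library, WC in blue and EV in orange, for the 8 pairs with the lowest p (above the dashed line) and for 3 of those with a higher ratio in EV (below it). WC and EV dots do not overlap in any of the 11 pairs, and the VIM pair goes from 25.2% to 32.6% in WC to 1.02% to 2.41% in EV.

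At the threshold, PPP3CB-AS1 and LIX1-AS1 had exactly 30 reads and POLH-AS1 and TRAPPC12-AS1, just outside, had 29. PPP3CB-AS1 had 8, 9 and 7 reads in WC and 3, 3 and 0 in EV libraries. TRAPPC12-AS1 had 8, 8 and 12 reads in WC and 1, 0 and 0 in EV libraries.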

How the data were processed

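K562 WC and EV RNA was sequenced as PCR-amplified, poly(A)-primed cDNA. According to the methods of the paper, bases were called with Guppy, reads under 20 nt were removed, and minimap2 mapped the rest to hg38. The deposited counts are the authors' raw gene counts from featureCounts (GENCODE v41), with no strand setting named and reads in regions of several genes left unassigned. The deposited signal values are the authors' counts divided by size factors, and the deposited score is the authors' test statistic from DESeq2. Neither was used, nor were the authors' fold changes and p-values. Symbols and biotypes came from the authors' table. Isoform models are the authors' FLAIR output, a deposited file with no counts per library.

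Members, lists and tests were chosen with earlier results of these data known. Named genes were those enriched, the 8 largest changes each way, the 10 highest levels, 5 without reads in a group, 2 on each side of the threshold, 10 described lncRNAs and the 8 lowest p-values of the ratio. Other called genes were named after their values were seen. The list of described lncRNAs was written from general knowledge. One pair is not reported here.

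One line per gene ID was kept (68201 of 68247 lines). The annotation was GENCODE v44, which held all 168 members. Tests used edgeR 4.0.16 in R 4.3.3 (TMM, its expression filter with 10 reads at the median library, robust quasi-likelihood fit, Benjamini-Hochberg adjustment). For ratios each library gave 2 columns and its own term. WC and EV libraries of a replicate shared a flow cell per the paper, which also describes the medium and cells as collected together. Same-number correlations after removing group means were 0.062, 0.024 and 0.004, and those of unlike numbers ranged from -0.049 to 0.034. The main gene test was unpaired, and the block was tried as an alternative. The labels do not say that replicates came from separate cultures, so p-values measure only the spread between these libraries, though the paper calls them biological triplicates. Intervals and floors cover counting error only. Copies elsewhere were sought for the members, but not for the sense genes, with blastn 2.17.0 (at least 400 nt at 95% identity). Alternatives were DESeq2 1.42.0, limma 3.58.1, other scalings, filters and read minimums, and leaving out each library. Scripts were tested on simulated data. Other software was Python 3.11.15, pandas 2.3.3, numpy 2.4.6, scipy 1.17.1, pysam 0.24.0 and matplotlib 3.10.9.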

Additional observations from a re-analysis of the deposited data

How the results depend on the processing

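Leaving out each library in turn, the number that rose ranged from 8 to 13, the number that fell from 23 to 32, those enriched in WC from 8 to 14 and in EV from 1 to 3, and the median log2 fold change from -0.61 to -0.50. Of the 44 called, 27 kept the call throughout. Without EV replicate 1, 8 were enriched in WC and 3 in EV, and without EV replicate 3 8 rose and 10 were enriched in WC. Without WC replicate 1, 2 were enriched in EV. The ratio was lower in 14 to 21 pairs and higher in 5 to 9, with 14 and 5 without EV replicate 1 and 5 higher without WC replicate 2.

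Total-count scaling gave 4 that rose, 58 that fell, 30 enriched in WC, 0 in EV and a median of -1.16. DESeq2 gave 9 enriched in WC, and no filter gave 8 that rose and a median of -0.90 over all 168, as did a mean of 5 reads with -0.71. The EV to WC ratio of the share was 0.511 without TMEM132D-AS1 and 0.90 with summed CPM. With a pseudocount of 2 in limma 18 ratios were higher. RLE scaling, other read minimums and, chosen after seeing the data, leaving out the 14 with copies elsewhere moved no count by 1.5 times. The replicate block gave 12 that rose, 30 that fell and 11 enriched in WC, and, in limma, 17 lower and 6 higher ratios. With it ZBTB11-AS1 (1.005, adjusted p = 0.0623) and TLR8-AS1 (-1.61, 0.0724) were no longer called, and 5 fell without being enriched. It ended the ratio calls of 5 lower pairs, none of which limma called without the block either, and of 4 higher pairs, among them SPEN-AS1 (1.57), EPS15-AS1 (1.505) and B3GALT1-AS1 (1.606). The cause of these shifts was not tested.

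Reversed signs concerned uncalled values. Total-count scaling gave OTUD6B-AS1 -0.29, KRT10-AS1 -0.29 and MAPKAPK5-AS1 -0.44, the last also -0.012 without a filter. With a library left out, log2 fold changes ranged from -0.66 to 0.18 for NNT-AS1 and from -0.40 to 0.17 for WAC-AS1, and ratio changes from -0.61 to 0.15 for MAPKAPK5-AS1, -0.17 to 4.596 for NUTM2B-AS1, -0.98 to 1.37 for PRKCQ-AS1, -0.24 to 0.35 for WAC-AS1, -5.90 to 4.13 for PPP1R26-AS1, -5.04 to 1.33 for SLC16A4-AS1 and -0.14 to 0.19 for KRT10-AS1. In limma ratio changes reversed for GATA2-AS1 (0.60, pseudocount 2), NUTM2B-AS1 (-0.36, and -1.67 with pseudocount 2), PRKCQ-AS1 (0.42) and SLC16A4-AS1 (0.35, and 1.26 with pseudocount 2), with the same values under the block as with pseudocount 0.5.

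The EV depth limits the result: 50 of the 168 had 1 to 3 EV reads and 12 none.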

Other observations

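The 1705 -AS genes under 30 reads held 3735 WC and 366 EV reads. Of the 91 with 15 to 29 reads, 62 had a lower and 29 a higher mean CPM in EV than in WC, and 23 had no EV read; none could be tested. Among the antisense lncRNAs with at least 30 reads, reads were uneven: the 10 with the most held 8191 of 23155 reads (35.4%), and 113 had fewer than 100 reads.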
